A study of Rattus norvegicus with 16 samples.

Results

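Transcripts of 10 genes of the unfolded protein response were measured in the normal distal colon of wildtype and Pirc rats, with and without earlier dextran sodium sulfate (DSS). The genes were chosen by name, with earlier results of these data known. They are the sensors Atf6 and Ern1, the transcription factors Xbp1, Atf4 and Ddit3, the chaperones and folding enzymes Hspa5, Hsp90b1, Dnajb9 and Pdia4, and Herpud1 of the degradation machinery. Each was found on the array through the RefSeq transcript of its probes, which gave 11 probes for 10 genes, of 30367 probes and 15159 named genes in all. Atf6 had 2 probes, both for the same transcript, and the brighter one is given unless the other is named. All 11 probes were well above background on all 16 arrays.

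There were 4 groups of 4 rats. All were (ACIxF344)F1 rats, the first generation of a cross of those strains, 97 days old. Untreated wildtype rats carried wildtype Apc, and untreated Pirc rats carried the Pirc allele of Apc on 1 chromosome (Pirc/+), an allele with which rats develop colonic adenomas. DSS-treated wildtype and DSS-treated Pirc rats had received 4% DSS, a polysaccharide that injures and inflames the colon, in the drinking water from day 40 to 47 and again from day 54 to 61, so that they were sampled 36 days after the last DSS. Each array held the RNA of 1 rat, and rats are named by their number in the labels. Levels are log2 intensities relative to the 75th percentile of the same array, so a level of 0 is that of the spot at the 75th percentile. A gene is said to pass, to rise or to fall at an adjusted p of 0.05 or less by limma's moderated test over all probes. No level of 1 gene is set against that of another, since probes differ in brightness.

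The unfolded protein response is the program by which a cell answers unfolded proteins in its endoplasmic reticulum (ER). Sensors in the ER membrane start it. Ern1 (IRE1 alpha) splices the mRNA of Xbp1 into the form that encodes the active factor. Atf6 is cut in the Golgi into a transcription factor, and the kinase PERK, encoded by Eif2ak3, slows translation and thereby favours translation of Atf4, which in turn induces Ddit3 (CHOP). The targets include chaperones of the ER lumen, such as Hspa5 (BiP) and Hsp90b1 (GRP94), and proteins of ER-associated degradation. Secretory cells such as goblet and plasma cells rely on the program, and mice lacking Xbp1 in the gut epithelium are prone to colitis. Much of it is controlled through splicing, cleavage and translation, which an array of transcript levels does not see. The files hold no probe sequences, so the spliced and unspliced forms of Xbp1 are not told apart here.

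The promoters show which of these genes carry the ER stress element, the sequence that Atf6 and spliced Xbp1 act through. The element was searched as CCAAT and CCACG with 9 bases of any kind between them, on both strands, in the 300 bases around each start site (250 before it, 50 after) that RefSeq places on the GRCr8 assembly. Of the 10 genes, 8 had a promoter there. The element was found in Hspa5, Hsp90b1 and Xbp1, and in 22 of all 33469 promoters (0.0657%). A second form (ATTGG and CCACG with 1 base between them) was found in Herpud1 and in 0.0508% of all promoters. The capitals below mark these elements and, in Herpud1, a C/EBP-ATF element (TTGCATCA), which 0.795% of all promoters held and which was searched because Atf4 and Ddit3 bind such sites. Pdia4 is shown because its transcript was higher in the same comparisons of Pirc with wildtype rats as those of Hspa5 and Hsp90b1, and its window held neither form. The 250 bases before each start site read, 5′ to 3′ on the strand of the gene:
Hspa5 (GRCr8 chr3:38452766-38453015, plus strand): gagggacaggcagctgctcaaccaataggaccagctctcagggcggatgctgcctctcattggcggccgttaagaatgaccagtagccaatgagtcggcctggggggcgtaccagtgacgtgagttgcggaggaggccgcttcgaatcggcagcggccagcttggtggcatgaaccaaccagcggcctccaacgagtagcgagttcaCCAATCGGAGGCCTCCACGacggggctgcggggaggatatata
Hsp90b1 (GRCr8 chr7:23012294-23012543, minus strand): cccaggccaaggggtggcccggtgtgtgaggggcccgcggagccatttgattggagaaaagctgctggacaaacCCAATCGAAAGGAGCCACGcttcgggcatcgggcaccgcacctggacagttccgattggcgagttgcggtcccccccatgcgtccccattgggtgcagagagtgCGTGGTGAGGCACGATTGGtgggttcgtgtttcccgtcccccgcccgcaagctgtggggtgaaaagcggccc
Pdia4 (GRCr8 chr4:78153192-78153441, minus strand): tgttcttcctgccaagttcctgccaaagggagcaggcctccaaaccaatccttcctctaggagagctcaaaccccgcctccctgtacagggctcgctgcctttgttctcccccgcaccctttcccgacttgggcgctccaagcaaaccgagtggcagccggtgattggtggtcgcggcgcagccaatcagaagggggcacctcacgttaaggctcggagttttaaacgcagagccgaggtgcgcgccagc
Xbp1 (GRCr8 chr14:84604373-84604622, plus strand): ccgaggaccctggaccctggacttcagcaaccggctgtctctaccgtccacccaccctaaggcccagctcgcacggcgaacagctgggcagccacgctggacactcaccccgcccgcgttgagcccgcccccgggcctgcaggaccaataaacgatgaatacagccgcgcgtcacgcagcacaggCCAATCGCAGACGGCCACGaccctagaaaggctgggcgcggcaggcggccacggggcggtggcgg
Herpud1 (GRCr8 chr19:10614708-10614957, minus strand): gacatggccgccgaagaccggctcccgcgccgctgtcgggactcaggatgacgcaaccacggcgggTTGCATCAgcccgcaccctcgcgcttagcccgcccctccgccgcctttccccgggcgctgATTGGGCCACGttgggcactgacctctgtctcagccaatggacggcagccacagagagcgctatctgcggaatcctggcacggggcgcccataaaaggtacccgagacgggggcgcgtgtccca

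In Hspa5 the element ran from base -43 to -25, counted from the start site. Hsp90b1 held 2 copies, from -176 to -158 and, on the opposite strand, from -72 to -54. The Xbp1 copy ran from -65 to -47. In Herpud1 the second form ran from -124 to -114 and the C/EBP-ATF element from -184 to -177. The CCACG part alone was in all 8 promoters, but also in 31.6% of all promoters, and overlaps both forms. The core of the cyclic AMP response element (TGACGT) was in Hspa5 and Dnajb9 and in 7.94% of all promoters, and the unfolded protein response element (TGACGTGG), which overlaps that core, in 0 of the 8 and in 0.595% of all. A match in these letters is a description of the window and not evidence of binding. The genes were chosen as known members of the pathway that these elements serve, so the shares of all promoters are no test of enrichment.

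The 16 arrays lay on 2 slides, scanned at 2 times, with 2 rats of every group on each slide. Each group had its own column of arrays, so the effects of column and group cannot be told apart. All 13 measured markers of colon epithelium, among them Cdx2 and Vil1, were well above background on every array. The tissue was mixed, and markers of other cells moved with the groups. In DSS-treated against untreated Pirc rats, 7 of 7 fibroblast and 6 of 7 plasma cell markers were higher. So were 6 of 7 markers of squamous epithelium and 3 of 4 neutrophil markers. In wildtype rats these counts were 4 of 7, 1 of 7, 2 of 7 and 3 of 4. Of all probes, 8.14% rose with DSS in Pirc rats and 2.94% in wildtype rats. Of 5 T cell markers 0 passed in either genotype. Of 5 smooth muscle and 8 goblet cell markers, 0 were higher and 1 of each list was lower in Pirc rats. In bulk tissue, fewer cells of a type and less RNA per cell cannot be told apart.

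DSS was compared with no DSS first. Atf6, the sensor that becomes a transcription factor, was the member that differed most: its transcript was 2.28 times as high in DSS-treated as in untreated Pirc rats, and Hspa5, the main chaperone of the ER lumen and the protein that holds the sensors inactive, was 1.57 times as high. No other member passed in Pirc rats, and no member passed in wildtype rats by the probes shown. Of all probes, 8.14% rose and 6.51% fell with DSS in Pirc rats, so the 2 of 10 members that rose, with 0 that fell, stand beside a background of 8.14% rising. In wildtype rats 2.94% of probes rose and 0.899% fell. There 2 members, Atf6 and Ern1, had an unadjusted p under 0.05, and 0 passed by a linear model without moderation.

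The level of Atf6 was 0.45, 0.04, 0.46 and 0.49 in the untreated Pirc rats 11, 15, 19 and 23, and 1.87, 1.83, 1.70 and 0.81 in the DSS-treated Pirc rats 12, 16, 20 and 24. Every treated rat was above every untreated one, and rat 24 was the lowest of the treated. The difference was 1.19 ± 0.25 on the log2 scale (SE, n = 4 against 4, adjusted p = 0.0056). In wildtype rats the levels were 0.59, 0.26, 0.29 and 0.47 without DSS (rats 13, 17, 21 and 25) and 1.75, 1.73, 0.82 and 1.05 with it (rats 14, 18, 22 and 26). Here too the groups did not overlap, but the difference of 0.94 ± 0.25 narrowly missed the threshold (adjusted p = 0.052). The dimmer probe of the same transcript passed in both genotypes, by 0.93 ± 0.25 in Pirc rats (adjusted p = 0.022) and by 1.19 ± 0.25 in wildtype rats (adjusted p = 0.017), so the call in wildtype rats depends on the probe. Over both genotypes the brighter probe rose by 1.07 ± 0.18 (adjusted p = 0.00079) and the dimmer by 1.06 ± 0.18 (adjusted p = 0.00078).

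**Figure D1:**
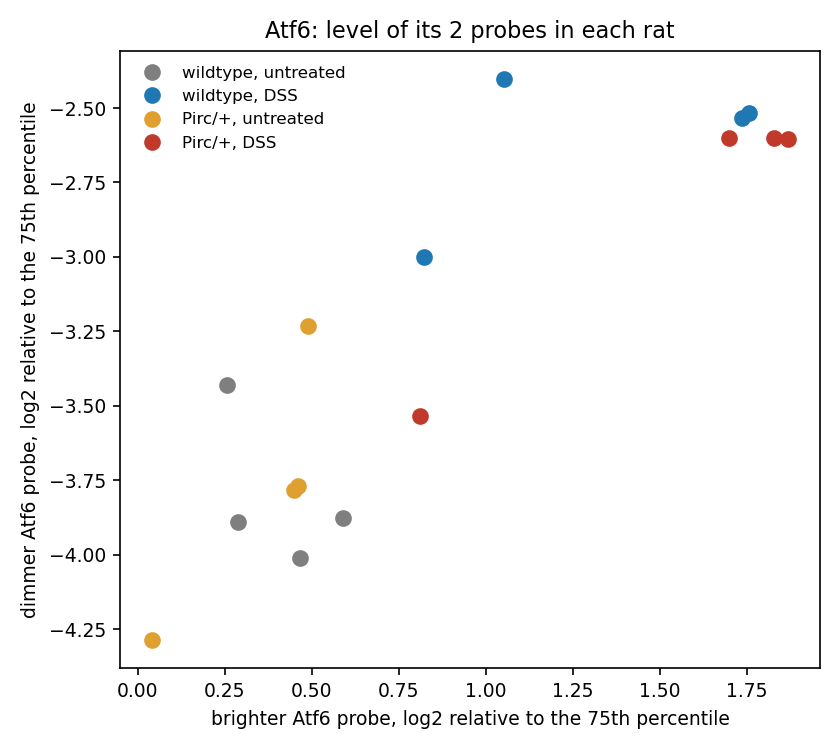
Level of the dimmer Atf6 probe (y axis) against that of the brighter one (x axis) in each of the 16 rats, both in log2 units from the array's 75th percentile, coloured by group. On the brighter probe all 8 DSS-treated rats lie at 0.81 or above and all 8 untreated rats at 0.59 or below, while on the dimmer probe the treated Pirc rat 24, at -3.54, lies among the untreated rats.

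The dimmer Atf6 probe was at -2.60, -2.60, -2.60 and -3.54 in the treated Pirc rats 12, 16, 20 and 24, and between -4.29 and -3.23 in the untreated ones. Rat 24 thus fell within the untreated range on this probe. In wildtype rats the treated ones (-3.00 to -2.40) all lay above the untreated ones (-4.01 to -3.43). Within the 2 slides the DSS difference of the brighter probe was 1.60 and 0.78 in Pirc rats and 1.32 and 0.56 in wildtype rats, the same direction throughout. In Pirc rats the call held in all 27 alternative fits. In wildtype rats the brighter probe passed when rat 22, 24 or 26 was left out, with slide as a block (adjusted p = 0.037), with quantile normalization (adjusted p = 0.044), with normexp (adjusted p = 0.044), after dim probes were left out (adjusted p = 0.031) and when the probes of a gene were averaged (1.06, adjusted p = 0.014). Of the cell type markers, those of fibroblasts, macrophages and neutrophils moved in the same direction. Within each genotype, all treated rats were above all untreated rats in each list's summed level. For fibroblasts it was 0.44 to 0.89 in untreated and 1.35 to 3.84 in treated wildtype rats, and 0.61 to 1.41 in untreated and 2.45 to 3.87 in treated Pirc rats, with 5 of the 7 markers well above background on every array. For macrophages, with 3 of 6 markers higher after DSS in each genotype and 5 of the 6 well above background on every array, it was 3.27 to 3.66 in untreated and 3.71 to 4.64 in treated wildtype rats, and 3.53 to 3.92 and 4.22 to 4.57 in Pirc rats. For neutrophils, with 3 of 4 markers higher in each genotype and 2 of the 4 well above background on every array, it was -1.52 to -0.50 and -0.15 to 2.13 in wildtype rats, and -0.0082 to 0.76 and 3.20 to 5.23 in Pirc rats. Across genotypes, the lowest treated wildtype rat lay below the highest untreated Pirc rat in each of these summed levels. The part of these cells in the Atf6 difference was not tested.

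Hspa5 was at 3.82, 3.77, 3.496 and 4.55 in the untreated Pirc rats and at 4.86, 4.38, 4.69 and 4.33 in the treated ones, in the same order of rats. The treated rats lay above 3 of the 4 untreated ones, and untreated rat 23 lay among them. The difference of 0.66 ± 0.21 had an adjusted p of 0.048. This call rests on a narrow margin: it was kept when rat 23, 24 or 26 was left out and lost when any of the other 13 rats was (0.52 to 0.87 over all). Of 11 other settings it was kept in 6 and lost with quantile normalization (0.54, adjusted p = 0.053), a common floor for dim probes (adjusted p = 0.054), slide as a block (adjusted p = 0.056), no moderation (adjusted p = 0.057) and only the groups compared (adjusted p = 0.155). The adjusted p ran from 0.0050 to 0.155 over the 27 alternative fits. In wildtype rats Hspa5 was at 3.63, 3.61, 3.41 and 3.81 without DSS and at 3.70, 3.80, 3.45 and 4.06 with it, a difference of 0.14 ± 0.21 (95% interval -0.31 to 0.58, adjusted p = 0.82). Over both genotypes the difference was 0.40 ± 0.15 (adjusted p = 0.084).

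The remaining chaperones did not pass. Dnajb9, an ER co-chaperone of Hspa5, was at -1.18, -1.11, -1.68 and -1.19 in untreated Pirc rats and at -1.89, -1.79, -1.80 and -1.48 in treated ones. It was thus lower in 3 of the 4 treated rats than in any untreated one, with a difference of -0.45 ± 0.16 and an adjusted p of 0.067. It passed in 5 of 27 alternative fits, namely 3 of 11 other settings and 2 with a rat left out. Among the settings were quantile normalization (-0.49, adjusted p = 0.029) and a filter on dim probes (adjusted p = 0.041). The rats were rat 19 (-0.58, adjusted p = 0.023) and rat 24 (-0.54, adjusted p = 0.035). In wildtype rats the difference of Dnajb9 was 0.05 ± 0.16. Pdia4, a protein disulfide isomerase, differed by 0.30 ± 0.22 in Pirc rats and by -0.01 ± 0.22 in wildtype rats. Hsp90b1, the ER member of the Hsp90 family, differed by 0.21 ± 0.19 and 0.09 ± 0.19. Herpud1, which helps bring unfolded proteins to degradation, differed by -0.20 ± 0.25 and 0.05 ± 0.25.

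The sensor Ern1 and the transcription factors also did not pass with DSS. Ern1 was at -5.37, -5.69, -5.29 and -5.50 in untreated wildtype rats and at -4.96, -5.17, -5.11 and -4.68 in treated ones. The treated rats were all higher, by 0.48 ± 0.20, but the adjusted p was 0.21, and the difference was 0.26 with quantile normalization and 0.060 after normexp background correction. In Pirc rats the difference was -0.21 ± 0.20. Xbp1 differed by -0.20 ± 0.13 in Pirc rats, where its groups met without overlapping (the lowest untreated rat at 2.5499, the highest treated at 2.5483), and by -0.24 ± 0.13 in wildtype rats. Over both genotypes Xbp1 differed by -0.22 ± 0.10 (adjusted p = 0.14). Atf4 differed by -0.23 ± 0.16 and -0.11 ± 0.16 in Pirc and wildtype rats, and Ddit3 by -0.01 ± 0.18 and -0.06 ± 0.18 (95% intervals -0.40 to 0.38 and -0.44 to 0.33). Over both genotypes, where 10.2% of all probes rose and 6.99% fell with DSS, Atf6 was the only member of the 10 to pass. Those comparisons share their rats with the ones within a genotype.

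**Figure D2:**
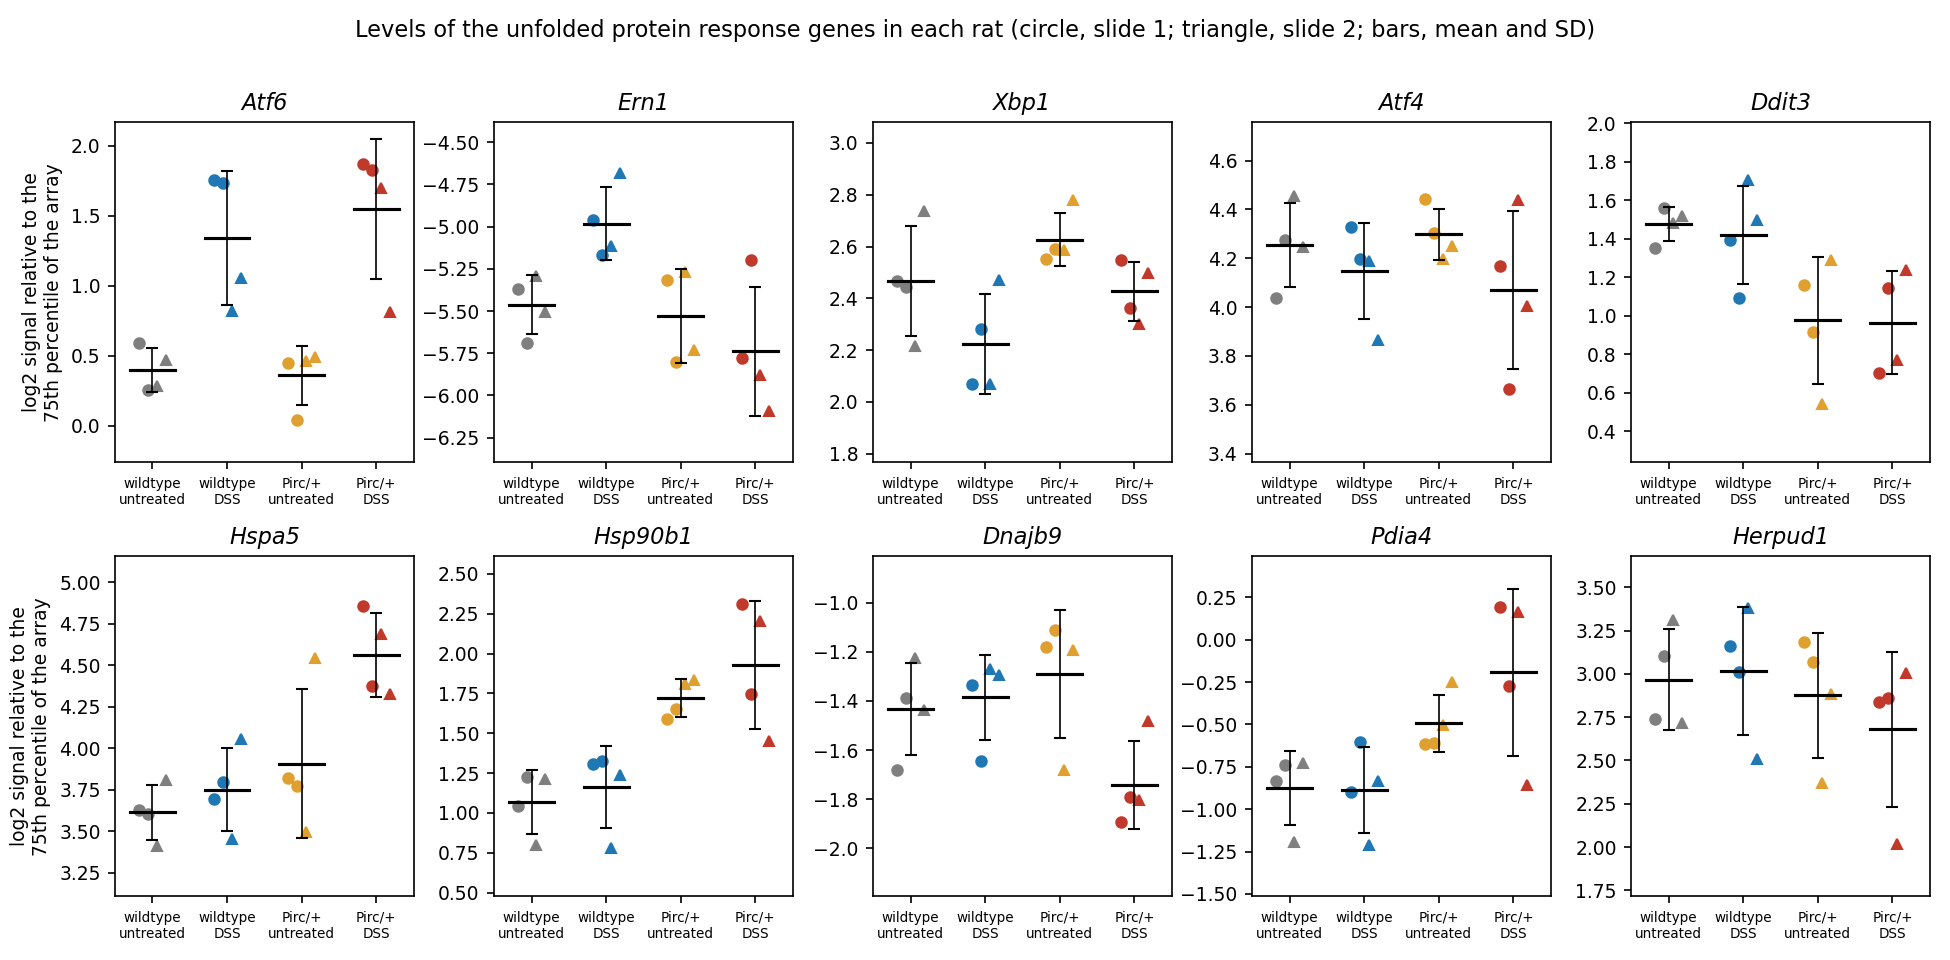
Level of each of the 10 genes (in log2 units from the array's 75th percentile, y axis, with its own range in every panel) in each rat of the 4 groups (x axis). Circles are rats of slide 1 and triangles of slide 2, long bars are group means and thin bars the SD of 4 rats. Atf6 is higher in both DSS groups, while Hsp90b1 is higher in both Pirc groups, at 1.45 or above in all 8 Pirc rats and at 1.33 or below in all 8 wildtype rats.

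Pirc rats were compared with wildtype rats next. Among DSS-treated rats Hspa5, Hsp90b1 and Pdia4 were 1.76, 1.70 and 1.62 times as high in Pirc as in wildtype rats, and Ern1 was 0.59 times as high. Of all probes, 9.47% were higher and 8.76% lower in this comparison, so 3 of 10 members were higher where the background is 9.47%, and 1 of 10 lower. Among untreated rats no member passed, nor did any probe (0.0% of all): at an unadjusted p under 0.05 there were 3103 probes and 2 of the members (Hsp90b1 and Ddit3). Over both treatments Hsp90b1, Hspa5 and Pdia4 were higher and Ddit3 was lower, beside 9.26% of probes higher and 8.27% lower.

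Hsp90b1 was the only member whose 8 Pirc rats all lay above its 8 wildtype rats. Its level was 1.31, 1.33, 0.78 and 1.24 in the DSS-treated wildtype rats 14, 18, 22 and 26 and 2.31, 1.74, 2.20 and 1.45 in the DSS-treated Pirc rats 12, 16, 20 and 24. It was 1.04, 1.23, 0.80 and 1.21 in the untreated wildtype rats 13, 17, 21 and 25 and 1.59, 1.65, 1.81 and 1.83 in the untreated Pirc rats 11, 15, 19 and 23. The lowest Pirc rat, treated rat 24, lay above the highest wildtype rat, treated rat 18. The difference was 0.76 ± 0.19 with DSS (adjusted p = 0.014), 0.65 ± 0.19 without it (adjusted p = 0.27) and 0.71 ± 0.13 over both (adjusted p = 0.0039). The first lost its call without rat 20 (0.67, adjusted p = 0.0501) and when only the 2 groups compared entered the fit (adjusted p = 0.082). The last passed in all 26 alternative fits, with values from 0.64 to 0.79.

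For Hspa5, whose levels are given above, all treated Pirc rats (4.33 to 4.86) lay above all treated wildtype rats (3.45 to 4.06), by 0.81 ± 0.21 (adjusted p = 0.016). Without DSS the genotypes overlapped and differed by 0.29 ± 0.21 (adjusted p = 0.68). Over both treatments the difference was 0.55 ± 0.15 (adjusted p = 0.019), a call that held in all 26 alternative fits. The call in treated rats was lost without rat 12 (0.72, adjusted p = 0.053) and without rat 22 (0.71, adjusted p = 0.0503). Within the 2 slides the difference in treated rats was 0.87 and 0.75.

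Pdia4 was at 0.19, -0.27, 0.17 and -0.86 in treated Pirc rats and at -0.90, -0.60, -1.21 and -0.83 in treated wildtype rats. In 3 of the 4 Pirc rats it was above every wildtype rat, and rat 24 lay among the wildtype rats. The difference was 0.69 ± 0.22 (adjusted p = 0.038). Without DSS it was at -0.61, -0.61, -0.50 and -0.25 in Pirc rats and at -0.83, -0.74, -1.19 and -0.73 in wildtype rats. These groups did not overlap, but the difference of 0.38 ± 0.22 did not pass (adjusted p = 0.58). Over both treatments it was 0.54 ± 0.15 (adjusted p = 0.026). In treated rats the call was lost without rat 12, 14, 20, 22 or 26 (0.57 to 0.91 over all rats left out), with slide and array row as a block (adjusted p = 0.063) and with only the 2 groups in the fit (adjusted p = 0.14), and over both treatments without rat 12, 20, 21 or 22 (0.47 to 0.65).

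Ern1 and Ddit3 ran the other way. Ern1, the sensor and RNase that splices Xbp1, was at -5.78, -5.20, -5.88 and -6.09 in treated Pirc rats, all below the treated wildtype rats (-5.17 to -4.68). The difference was -0.76 ± 0.20 (adjusted p = 0.016), with -0.42 and -1.09 within the slides, and was lost as a call without rat 20 (-0.71, adjusted p = 0.052) and with only the 2 groups in the fit (adjusted p = 0.072). Without DSS the genotypes overlapped (-0.07 ± 0.20), and over both treatments the difference of Ern1 was -0.41 ± 0.14 (adjusted p = 0.053), which passed in 8 of 26 alternative fits. After normexp background correction the difference in treated rats shrank to -0.30 but passed. Ern1 was dim: the lowest spot well above background lay at -7.58 to -6.22 in the treated Pirc rats and at -6.84 to -6.50 in the treated wildtype rats. Ddit3 (CHOP), a factor tied to cell death in prolonged stress, was at 0.70, 1.15, 0.77 and 1.24 in treated and 1.16, 0.92, 0.54 and 1.29 in untreated Pirc rats. It was at 1.39, 1.09, 1.71 and 1.498 in treated and 1.35, 1.56, 1.48 and 1.52 in untreated wildtype rats. Over both treatments it was lower in Pirc rats, at a difference of -0.48 ± 0.13 (adjusted p = 0.020, passed in all 26 alternative fits), with -0.46 ± 0.18 in treated (adjusted p = 0.097) and -0.50 ± 0.18 in untreated rats (adjusted p = 0.36).

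The other members did not pass between genotypes. Xbp1 differed by 0.20 ± 0.13 in treated and 0.16 ± 0.13 in untreated rats, Atf4 by -0.08 ± 0.16 and 0.04 ± 0.16, and Herpud1 by -0.33 ± 0.25 and -0.09 ± 0.25. Dnajb9 differed by -0.36 ± 0.16 in treated rats (adjusted p = 0.13) and by 0.14 ± 0.16 in untreated rats. The 2 probes of Atf6 differed in sign in treated rats, at 0.21 ± 0.25 and -0.22 ± 0.25. The 95% interval of Herpud1 in treated rats ran from -0.88 to 0.21, so sizeable differences are within the error of these 4 rats a group.

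**Figure D3:**
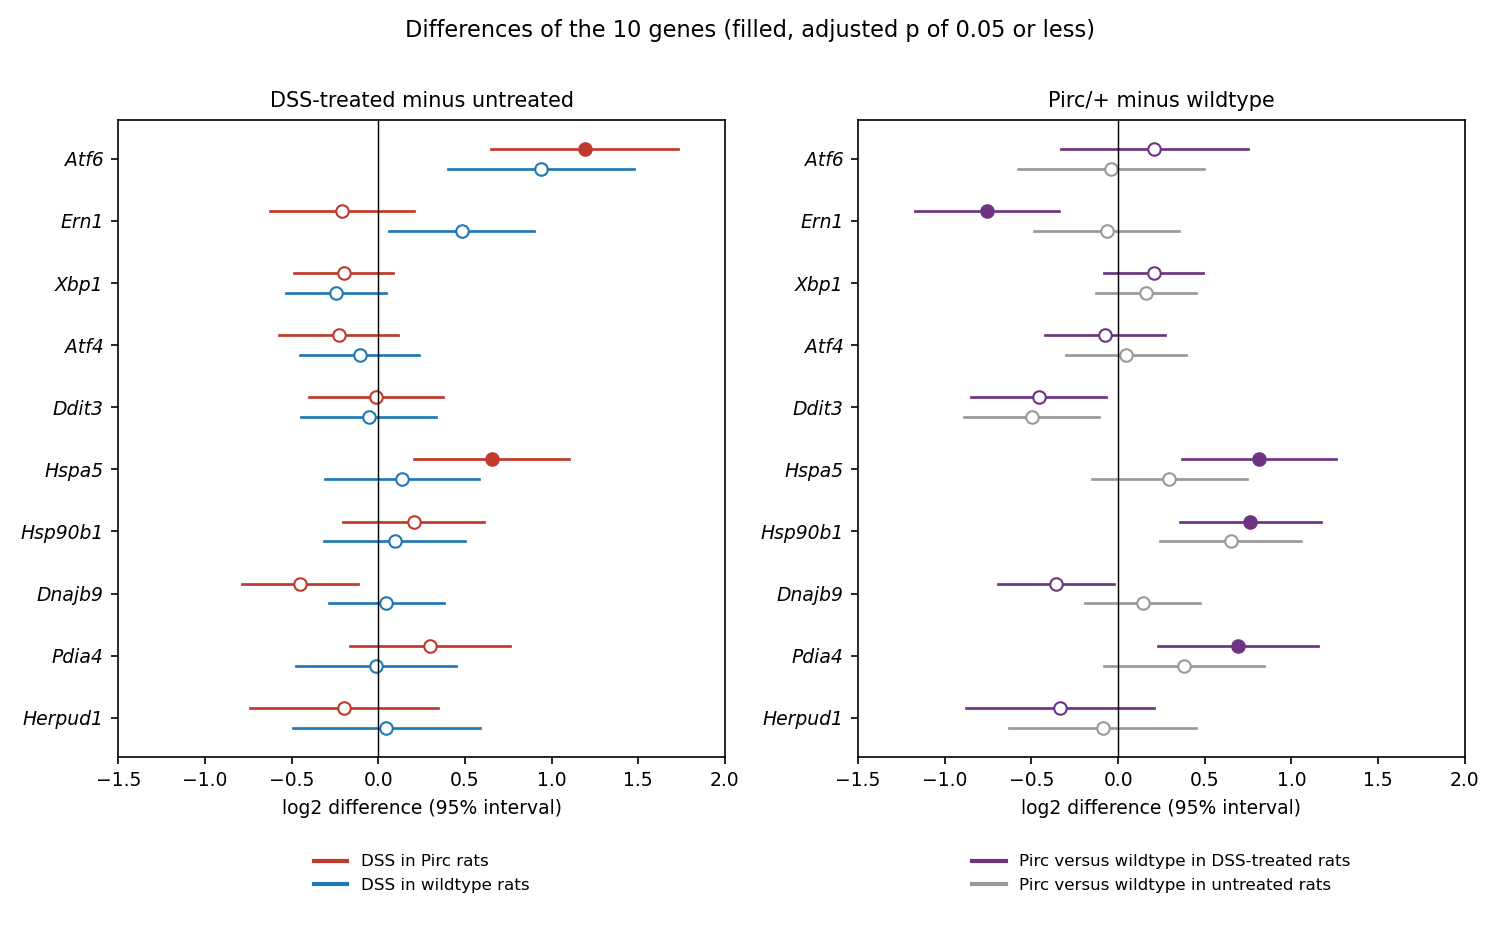
Log2 difference of each of the 10 genes (points, with the 95% interval of the limma fit as lines), for DSS-treated minus untreated rats (left) and Pirc minus wildtype rats (right), n = 4 rats a group. Filled points passed at an adjusted p of 0.05 or less: Atf6 and Hspa5 with DSS in Pirc rats, and Hspa5, Hsp90b1, Pdia4 (higher) and Ern1 (lower) in DSS-treated Pirc rats.

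Whether DSS acted differently in the 2 genotypes was tested as the difference between the DSS effects. No member passed, beside 13 of all 30367 probes (0.0428%); at an unadjusted p under 0.05 there were 2 members, Ern1 and Dnajb9. Ern1 differed between the effects by -0.69 ± 0.28 (adjusted p = 0.39; -0.23 after normexp), Hspa5 by 0.52 ± 0.30 (adjusted p = 0.56) and Dnajb9 by -0.50 ± 0.22 (adjusted p = 0.44). The difference of Atf6 was 0.25 ± 0.36 (95% interval -0.51 to 1.01). So the pass of Hspa5 in Pirc rats and its miss in wildtype rats is not shown to be a difference between the genotypes.

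The wider pathway was described by lists of genes. Of 21 measured chaperones and folding enzymes of the ER other than the members, 9 were higher and 0 lower in DSS-treated Pirc than in DSS-treated wildtype rats, with a median difference of 0.38 against -0.11 over all probes. In that comparison 9.47% of all probes were higher and 8.76% lower. Over both treatments 11 were higher and 0 lower (median 0.33 against -0.06), and in untreated rats 0 passed (median 0.27 against -0.02). Of all probes, 9.26% were higher and 8.27% lower over both treatments, and 0.0% passed in untreated rats. Sdf2l1, a co-chaperone of the ER, was higher by 1.04 ± 0.30 in treated Pirc rats (adjusted p = 0.027), Creld2, an ER stress-induced isomerase, by 0.97 ± 0.26 (adjusted p = 0.020), and Hyou1, a nucleotide exchange factor for Hspa5, by 0.84 ± 0.25 (adjusted p = 0.028). Fkbp11, a peptidyl-prolyl isomerase, was higher by 0.68 ± 0.16 over both treatments (adjusted p = 0.0093). The direction of these chaperones was that of Hspa5, Hsp90b1 and Pdia4. Dnajb9 ran the other way, by -0.36 in treated rats and -0.11 over both treatments, and did not pass.

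With DSS, 3 of the same 21 genes passed in Pirc rats, where 8.14% of all probes rose and 6.51% fell. Hyou1 (0.91 ± 0.25, adjusted p = 0.022) and the ER oxidase Ero1a (0.80 ± 0.14, adjusted p = 0.0016) rose and Txndc11 fell (-0.48 ± 0.14, adjusted p = 0.030), with a list median of 0.17 against 0.04 over all probes. In wildtype rats 0 of the 21 passed (median 0.03 against 0.09), where 2.94% of all probes rose and 0.899% fell. Over both genotypes Ero1a rose (0.56) and Txndc11 (-0.36) and Fkbp2 (-0.31) fell, beside 10.2% of all probes rising and 6.99% falling.

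Of 25 measured genes listed as targets of Atf4 and Ddit3, 11 rose and 0 fell with DSS in Pirc rats, a comparison in which the transcripts of both factors did not pass. Whether each listed gene depends on these factors in this tissue was not tested. Of all probes, 8.14% rose and 6.51% fell there. The list had a median of 0.41 against 0.04 over all probes. Psat1, of serine synthesis, rose by 1.94 ± 0.39 (adjusted p = 0.0037), Slc7a11, the cystine transporter, by 1.67 ± 0.32 (adjusted p = 0.0029), and Mthfd2, of mitochondrial folate metabolism, by 1.48 ± 0.29 (adjusted p = 0.0036). In wildtype rats 0 of the 25 passed (median 0.14 against 0.09), where 2.94% of all probes rose and 0.899% fell. Between treated Pirc and treated wildtype rats 8 were higher and 0 lower, beside 9.47% of all probes higher and 8.76% lower. The largest differences were those of Slc7a11 (1.80 ± 0.32), Psat1 (1.63 ± 0.39) and the amino acid transporter Slc7a5 (1.21 ± 0.29). Over both treatments 7 were higher and 3 lower in Pirc rats, beside 9.26% of all probes higher and 8.27% lower. The lower ones were Bbc3 (-0.78 ± 0.24), Trib3 (-0.72 ± 0.15) and Ppp1r15b (-0.30 ± 0.10), which act in cell death, in inhibition of Atf4 and Ddit3, and in dephosphorylation of eIF2 alpha. No gene of any of the 5 lists passed for the difference between the DSS effects.

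**Figure D4:**
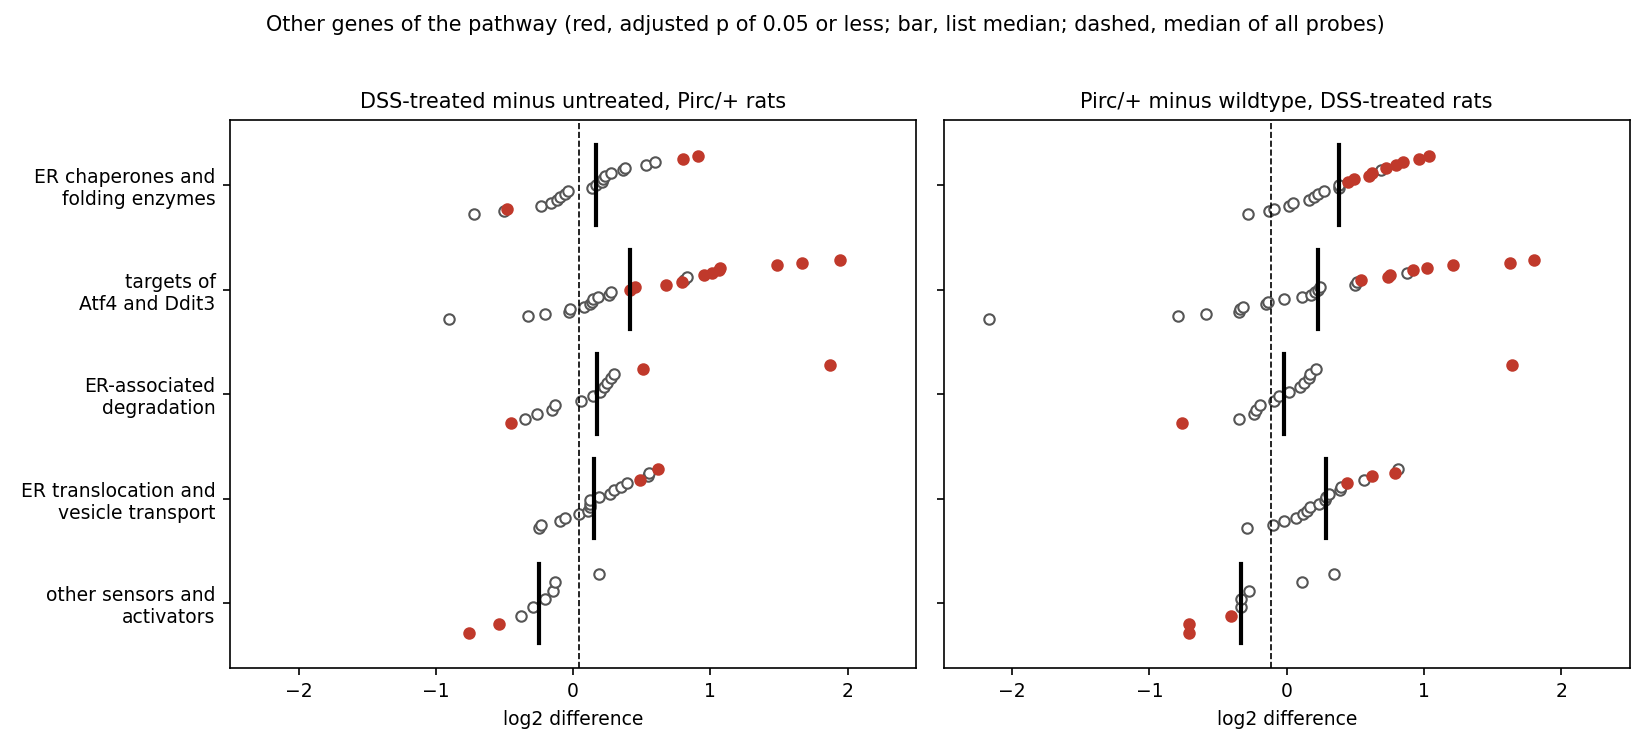
Log2 differences (x axis) of the genes of 5 pathway lists (y axis), each point 1 gene, for DSS-treated minus untreated Pirc rats (left) and for Pirc minus wildtype among DSS-treated rats (right). Red points passed at an adjusted p of 0.05 or less, black bars are list medians and the dashed line is the median of all probes. Chaperones that passed are on the right side of the right panel (9 of 21), and listed targets of Atf4 and Ddit3 that passed are on the right side of both panels (11 and 8 of 25). Of all probes, 8.14% were higher in the comparison on the left and 9.47% in that on the right.

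Of the 8 other sensors and activators, Ern2, the epithelial relative of Ern1, fell with DSS in Pirc rats (-0.76 ± 0.23, adjusted p = 0.040), as did Creb3l2, a factor cleaved like Atf6 (-0.54 ± 0.14, adjusted p = 0.018). Between treated Pirc and wildtype rats 3 of the 8 were lower, namely Mbtps2 (-0.71 ± 0.18), Creb3l2 (-0.71 ± 0.14) and Mbtps1 (-0.41 ± 0.13). Of all probes, 6.51% fell with DSS in Pirc rats and 8.76% were lower between the treated genotypes. The median differences of the list were -0.25 and -0.33, against 0.04 and -0.11 over all probes. Mbtps1 and Mbtps2 are the proteases that cut Atf6. In wildtype rats 0 of the 8 passed with DSS. Eif2ak3 (PERK) differed by 0.19 ± 0.15 with DSS in Pirc rats (adjusted p = 0.48).

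In ER-associated degradation, 2 of 14 rose and 1 fell with DSS in Pirc rats, beside 8.14% of all probes rising and 6.51% falling, and the median difference of the list was 0.17 against 0.04 over all probes. Derl3, a channel component that plasma cells also express strongly and that stands in the plasma cell list too, rose by 1.88 ± 0.25 (adjusted p = 0.00028). Sel1l, the scaffold of the Hrd1 ligase, rose by 0.51 ± 0.14 (adjusted p = 0.027) and in wildtype rats by 0.74 ± 0.14 (adjusted p = 0.011), the only gene of the list to pass there. Edem2, which trims mannose from misfolded glycoproteins, fell in Pirc rats (-0.45 ± 0.10, adjusted p = 0.0062). In treated Pirc against wildtype rats Derl3 was higher (1.64 ± 0.25) and Edem3 lower (-0.76 ± 0.19), and 12 of 14 did not pass. Of 18 genes of translocation and vesicle transport, 2 rose with DSS in Pirc rats (Sec11c, 0.62 ± 0.16, and Sec61a1, 0.49 ± 0.15) and 3 were higher in treated Pirc than wildtype rats (Sec11c, 0.79 ± 0.16, Spcs2, 0.62 ± 0.20, and Ssr2, 0.44 ± 0.14), with 0 lower in either. The backgrounds are 8.14% and 9.47% of probes higher, and the list's median differences were 0.16 and 0.28 against 0.04 and -0.11 over all probes.

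Cell type markers that moved beside the chaperones are given with their levels. The summed level of 7 plasma cell markers was 4.66 to 5.17 in untreated and 4.85 to 5.16 in treated wildtype rats, and 4.23 to 4.53 in untreated and 4.75 to 5.68 in treated Pirc rats. Such a sum is weighted to the brightest markers of its list. The median DSS difference of these 7 markers was 0.92 in wildtype and 1.88 in Pirc rats, against 0.09 and 0.04 over all probes. In treated Pirc rats 4 of the 7 markers were higher than in treated wildtype rats and 4 of the 7 were well above background on all arrays, with Irf4 so on none. The 8 goblet cell markers summed to 8.05 to 8.24 in untreated and 6.92 to 7.99 in treated Pirc rats, against 7.72 to 8.25 and 7.72 to 8.13 in wildtype rats. Clca1 was lower in treated Pirc rats than in either comparison group (-2.07 ± 0.40 with DSS and -1.97 ± 0.40 by genotype). Spdef was higher by genotype in treated rats (0.45 ± 0.14, adjusted p = 0.035), and 6 of the 8 goblet markers did not pass there. With DSS in Pirc rats 7 of the 8 did not pass. Between treated Pirc and treated wildtype rats, 9.47% of all probes were higher and 8.76% lower. Of the 13 epithelial markers 5 were lower and 0 higher in treated Pirc than treated wildtype rats, and their sum overlapped (9.25 to 9.68 against 9.51 to 9.80). Squamous markers summed to 2.08 to 5.42 in treated wildtype and 4.37 to 6.64 in treated Pirc rats, against 2.12 to 2.29 in untreated wildtype and 1.85 to 2.08 in untreated Pirc rats, and neutrophil markers to -0.15 to 2.13 and 3.20 to 5.23 in treated wildtype and Pirc rats. The part of these cells in the differences of Hspa5, Hsp90b1, Pdia4 and Ern1 was not tested.

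The genes whose pattern over the 16 arrays was most like that of Hspa5 were ranked by the root mean square of the log2 difference from it, each gene first centred on its own mean. Among 10361 genes the median distance was 0.55. The nearest were Ddx39a (0.164), Taf9 (0.167), Ran (0.172), Bola3 (0.175) and Ppial4g (0.185). None of the members was among these. Pdia4 ranked 138 (0.255) and Hsp90b1 279 (0.282), while Xbp1 ranked 2233 and Dnajb9, Ddit3, Herpud1 and Ern1 ranked 6405, 7428, 7793 and 8092. Atf4 (4754) and Atf6 (4811) were in the middle of the ranking. Pdia4 and Hsp90b1, with Hspa5 the members that were higher in Pirc rats, were thus the nearest members, an order that follows from the same levels as the comparisons above.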

How the data were processed

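The authors deposited, for each array, the scanner output of Agilent Feature Extraction for a single-colour (Cy3) design, which gives each spot an intensity on a linear scale after subtraction of background, with no normalization between arrays. The processing notes name Partek, with no version. Of 62976 spots per array, 4259 controls were left out, and the other 58717 belong to 30367 probes. The share of spots well above background was 71.1% to 80.3% per array, and 0 spots were saturated. The 75th percentile of the signal ran from 875 to 2194. Precision is limited by the number of arrays.

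The log2 intensity minus the log2 of the array's 75th percentile was taken as the level of a spot, and the spots of each probe were averaged, leaving out those with an outlier flag (kept for 25 probe values where every spot was flagged). Probes were named through their RefSeq accession and a GRCr8 gene table: 18006 matched 15159 symbols and 12361 did not. Differences were fitted with limma 3.58.1 in R 4.3.3 on all 16 arrays, 1 mean per group, for 7 comparisons, with Benjamini-Hochberg adjustment over all probes. Fits were tested on simulated data. A gene with several probes is given by the brightest. The summed level of a list is the log2 of the sum of its genes' linear levels.

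Of the wider lists, up to 3 genes per list and direction that passed are named, those with the largest differences, and the 10 members always; Eif2ak3 was named for its role. The 10 members and all lists were chosen with earlier results of these data known. The labels give separate rats, so p-values measure the spread between rats. Alternatives were quantile normalization, normexp with an offset of 50, another scaling, a filter or a floor for dim probes, slide (881 probes passed between slides, none of the members) or slide and array row as a block, flagged spots kept, only the groups compared, no moderation, probes averaged, other thresholds and each rat left out.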

Additional observations from a re-analysis of the deposited data

Results flagged for a closer look

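In a group of 4 rats, 5 of 44 combinations of probe and group had a rat far from the other 3, where 1 in 20, or 2.2, would be flagged by chance. Rat 24, a DSS-treated Pirc rat, was low for Atf6 on both probes, at 0.81 against 1.70 to 1.87 in the other 3 and at -3.54 against about -2.60. The untreated Pirc rat 15 was low for Atf6, at 0.042 against 0.45 to 0.49. The DSS-treated wildtype rat 22 was low for Hsp90b1, at 0.78 against 1.24 to 1.33. The untreated Pirc rat 19 was low for Dnajb9, at -1.68 against -1.19 to -1.11.

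Without rat 24 the DSS difference of Atf6 in Pirc rats was 1.44 on the brighter probe, the highest value of all rats left out. Rat 24 also had the lowest level of Hsp90b1 (1.45) and Pdia4 (-0.86) among the 4 treated Pirc rats.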

How the results depend on the processing

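Of 70 member differences, 11 passed. Over 1860 values under alternatives, 1750 kept their direction and side of the threshold, 35 lost a pass, 24 gained one and 51 changed sign, none of these a difference that had passed and none larger than 0.25 in size. The passes that held in every alternative fit were those of Atf6 with DSS in Pirc rats and over both genotypes, and of Hspa5, Hsp90b1 and Ddit3 by genotype over both treatments. With a factor of 2 also required, only those of Atf6 remained. Quantile normalization took the median DSS difference of all probes in Pirc rats, 0.04, to -0.07, and that in wildtype rats, 0.09, to -0.04. With 4 rats a group, the precision is limited by their number. The cause was not tested for any change given here. The rat numbers differ between the groups and pair no rats. With slide and array row as a block, where each of 4 blocks held 1 rat of every group, 3 rather than 4 members passed by genotype in treated rats (Pdia4 lost, adjusted p = 0.063), and no other count of members changed. Of all probes, 5098 rather than 5537 passed in that comparison.

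With DSS in Pirc rats 2 members passed, 1 with a common floor, slide as a block, only the groups compared, no moderation or a factor of 2 required, and 1 to 3 with a rat left out (12 of 16 gave 1, through Hspa5). Of all 30367 probes, 4451 passed there in the main fit and 4206 with a common floor. The number was 4647 with slide as a block, 2523 with only the groups compared and 4456 without moderation. Dnajb9 passed there in 3 of 11 other settings, among them the filter on dim probes, where Atf6 and Hspa5 passed too. At an adjusted p of 0.20 Dnajb9 (0.067) joined them. In wildtype rats 0 passed, and 1 (Atf6) with quantile normalization, normexp, slide as a block, the filter on dim probes, probes averaged or an adjusted p of 0.20, and 0 to 1 with a rat left out. Of all probes, 1165 passed in the main fit, 1377 with quantile normalization, 1257 with normexp and 1328 with slide as a block. The filter gave 1577 of 21759 probes, and averaging gave 868 of 15159 genes. Over both genotypes 1 passed, 2 with quantile normalization or normexp, 3 at an adjusted p of 0.20, and 1 to 2 with a rat left out (2 without rat 23, where Hspa5 passed at 0.50). Of all probes, 5234 passed in the main fit, 6401 with quantile normalization and 6512 with normexp. In treated rats 4 differed by genotype, 1 with only the groups compared and 0 with a factor of 2, and 1 (without rat 20) to 4 with a rat left out, with 2 without rat 12 or rat 22. Of all probes, 5537 passed in the main fit and 2127 with only the groups compared, so that setting lowered the calls on the whole array. At an adjusted p of 0.20 Ddit3 (0.097) and Dnajb9 (0.13) joined the 4. Over both treatments 4 differed by genotype, 0 with a factor of 2, and 3 to 5 with a rat left out (3 without rat 12, 20, 21 or 22, through Pdia4, and 5 without rat 11, 16 or 19, through Ern1). Ern1 there also passed with quantile normalization, normexp, the other scaling, the filter on dim probes and probes averaged, and at an adjusted p of 0.20 (0.053). No alternative gave a member for Pirc against wildtype in untreated rats or for the difference between the DSS effects.

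Sign changes by setting were small. Normexp turned Ddit3 with DSS in Pirc rats to 0.023. Quantile normalization and normexp turned Ern1 with DSS over both genotypes to -0.077 and -0.056, and Xbp1 in the difference between the DSS effects to -0.031 and -0.011. Averaging probes turned Atf6 to -0.0063 by genotype in treated rats, -0.0049 over both treatments and -0.0028 in the difference between effects. The others came from single rats left out, with these ranges. With DSS in Pirc rats Ddit3 ran from -0.16 to 0.091 and Herpud1 from -0.37 to 0.023. In wildtype rats Ddit3 ran from -0.15 to 0.054, Dnajb9 from -0.035 to 0.13, Pdia4 from -0.12 to 0.096 and Herpud1 from -0.074 to 0.22. Over both genotypes Ddit3 ran from -0.11 to 0.021 and Herpud1 from -0.16 to 0.035. By genotype in untreated rats Atf4 ran from -0.027 to 0.11, Atf6 from -0.089 to 0.065, Ern1 from -0.15 to 0.025 and Herpud1 from -0.19 to 0.080. Atf4 ran from -0.20 to 0.057 in treated rats and from -0.078 to 0.051 over both treatments, where Atf6 ran from -0.0024 to 0.21. In the difference between the DSS effects Hsp90b1 ran from -0.016 to 0.27, Xbp1 from -0.047 to 0.13, Atf4 from -0.25 to 0.012 and Ddit3 from -0.10 to 0.15.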
